A study of Mus musculus with 6 samples.

Results

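The interferon-stimulated genes described here are a list of 40 genes, picked by gene symbol, that hold the transcription factors, sensors and antiviral effectors of the interferon response. They were followed in the epididymal white fat of mice with 1 altered copy of Pparg, the nuclear receptor that drives fat cell formation. Of the 40 genes, 38 had a probe set annotated to their symbol alone, and the brightest such probe set over the 6 arrays was read for each. After a filter on dim probe sets 36 of the 38 were tested, within 11201 genes tested in all. Isg15 and Ifi44 had no probe set of a single symbol and have no value here, and Mx1 and Mx2 were too dim to be tested.

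Each array held the RNA of the whole epididymal fat pad of 1 male mouse aged 10 weeks, on a mixed C57BL6;129Sv background. The 3 Pparg ldi/+ mice were heterozygous for the ldi allele and are described in the labels as lipodystrophic, and the 3 wild-type mice came from matched litters. The labels name no Cre or tissue-restricted promoter, so the genotype singles out no cell type. A fat pad holds fat cells, macrophages, lymphocytes, vessels and stroma, and in such bulk tissue fewer cells of a type and less RNA per cell cannot be told apart.

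Interferons bind receptors on the cell surface and activate JAK kinases, which phosphorylate STAT proteins. With Irf9 these form a complex that binds the interferon-stimulated response element (ISRE) in the promoters of antiviral genes, while type II interferon acts mainly through a second element, the gamma-activated site (GAS). In white fat the response has been studied mainly in macrophages and other immune cells of obese or inflamed tissue, and fat cells themselves can also respond.

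Pparg itself had signals of 4378, 4440.3 and 4998 in wild type and 1732, 1709 and 1901 in Pparg ldi/+, a log2 difference of -1.35 (SE 0.084, n = 3 per group, limma adjusted p = 1.04e-05). Other adipocyte markers were lower as well, as given below, so this drop is no check of the genotype apart from the fat cell content. All values are signals scaled to a common trimmed mean of 500, and log2 differences were taken after adding 32, which understates the change of dim genes. The scale factors ranged from 2.12 to 2.49. The Pparg ldi/+ arrays were not alike. Pparg ldi/+ arrays 1 and 2 held transcripts of the epididymal epithelium, the lining of the sperm duct that lies against this fat pad, with a summed signal over 11 marker genes of 23288 and 31934, against 738 on array 3 and 661 to 1329 in wild type. Macrophage markers, by contrast, were high on all 3 Pparg ldi/+ arrays, with 14 of 15 called higher by limma and a summed signal of 114509 to 116811 against 44558 to 57601 in wild type. Adipocyte markers, Pparg among them, summed to 104311 to 117680.0 in wild type and 55096 to 61987 in Pparg ldi/+, with 5 of 6 called lower. Results are therefore given over all arrays, without Pparg ldi/+ array 3, and for that array alone against the wild type.

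Interferon-stimulated genes are known for shared promoter elements, and these are shown first. RefSeq windows of the GRCm38.p6 build, from 250 bases before to 50 bases after a gene's start, were found for 33 of the 40 members. The ISRE core GAAANNGAAA, searched on both strands, was present in 18 of the 33 (54.5%), against 3.99% of the 27025 genes with a window. The GAS palindrome TTCNNNGAA was present in 11 (33.3%), against 9.55% of all genes, and 6 members held both. The 2 motifs can overlap in a sequence. These shares describe letters and do not show that a factor was bound.

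The 250 bases before the start of Ifit1, Oas1a and Irf8 are shown because the 3 genes differed in their pattern over the arrays, as described further on. Ifit1 (chr19:34640639-34640888, + strand) carries a pair of ISRE cores and Oas1a (chr5:120907526-120907775, - strand) a pair that share bases, all in capitals. In Irf8 (chr8:120736108-120736357, + strand) the capitals are 2 GAS matches, and no ISRE core was found in that window. The window of Oas1a also holds a GAS match with its first base at -98, left in lower case. On this strand the core of Ifit1 reads as its reverse complement.

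Ifit1: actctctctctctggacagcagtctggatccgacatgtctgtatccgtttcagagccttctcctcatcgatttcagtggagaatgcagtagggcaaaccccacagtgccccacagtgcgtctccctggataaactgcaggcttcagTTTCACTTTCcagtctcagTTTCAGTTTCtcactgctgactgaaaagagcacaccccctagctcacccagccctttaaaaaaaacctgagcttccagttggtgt
Oas1a: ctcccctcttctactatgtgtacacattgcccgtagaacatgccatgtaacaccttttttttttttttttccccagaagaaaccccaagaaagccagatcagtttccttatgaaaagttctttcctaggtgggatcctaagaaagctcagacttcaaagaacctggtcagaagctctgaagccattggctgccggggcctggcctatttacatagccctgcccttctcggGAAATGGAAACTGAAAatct
Irf8: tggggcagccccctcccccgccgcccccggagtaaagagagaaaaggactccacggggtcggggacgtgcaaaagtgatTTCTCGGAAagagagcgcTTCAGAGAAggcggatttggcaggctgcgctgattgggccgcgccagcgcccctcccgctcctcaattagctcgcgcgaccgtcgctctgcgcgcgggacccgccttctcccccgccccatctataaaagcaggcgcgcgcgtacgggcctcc

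Shorter stretches show the ISRE core, in capitals, of 6 further members from different roles, each read along the gene's own strand. They are Ifit3 (chr19:34583395-34583428), Rsad2 (chr12:26456551-26456584), Oas3 (chr5:120777713-120777746), Irgm1 (chr11:48871423-48871462), Gbp2 (chr3:142620592-142620625) and Igtp (chr11:58199510-58199543). The stretch of Irgm1 holds 2 overlapping cores, and that of Igtp also holds a GAS match at -45, left in lower case.

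Ifit3: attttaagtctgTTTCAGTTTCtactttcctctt
Rsad2: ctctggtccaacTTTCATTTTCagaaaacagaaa
Oas3: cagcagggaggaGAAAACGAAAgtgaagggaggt
Irgm1: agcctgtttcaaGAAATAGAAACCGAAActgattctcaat
Gbp2: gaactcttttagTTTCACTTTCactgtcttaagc
Igtp: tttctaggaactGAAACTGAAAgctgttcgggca

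Over the members, 27 ISRE matches were found, with their first base at positions -241 to 33 from the start and a median of -59. Of these, 19 lay within 150 bases before the start and 5 after it, and 8 members held 2 or more matches.

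**Figure D1:**
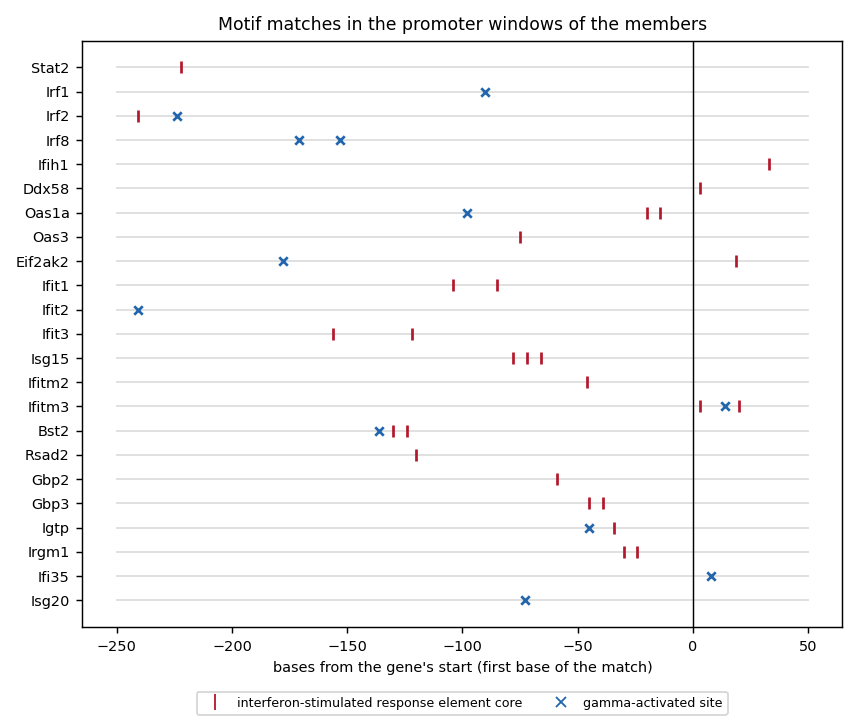
Position of ISRE and GAS matches in the RefSeq windows of the members, in bases from the gene's start on the x axis, with 1 line for each member that holds a match. Most ISRE matches lie in the 150 bases before the start (19 of 27).

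In Pparg ldi/+ fat, 14 of the 36 tested members rose and 0 fell (limma, Benjamini-Hochberg adjusted p under 0.05 over 11201 genes). Of all genes tested 16.3% were called higher and 16.4% lower. At an unadjusted p under 0.05, 20 members were higher and 0 lower. The median log2 difference of the members was 0.70, against -0.0043 over all genes, and 34 of 36 had a positive difference. The members that rose were Irf5, Irf8 and Irf9 among the transcription factors, Dhx58 among the RNA sensors, Oas1a, Oas2, Oasl1 and Oasl2 among the oligoadenylate synthetases, Ifitm1, Ifitm2 and Ifitm3 at membranes, the GTPase Igtp, and Parp9 and Parp14. The 22 others were not called. Oas2 and Oas3 passed the filter on dim probe sets through their Pparg ldi/+ signals alone, so their place among the tested genes depended on being high there.

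**Figure D2:**
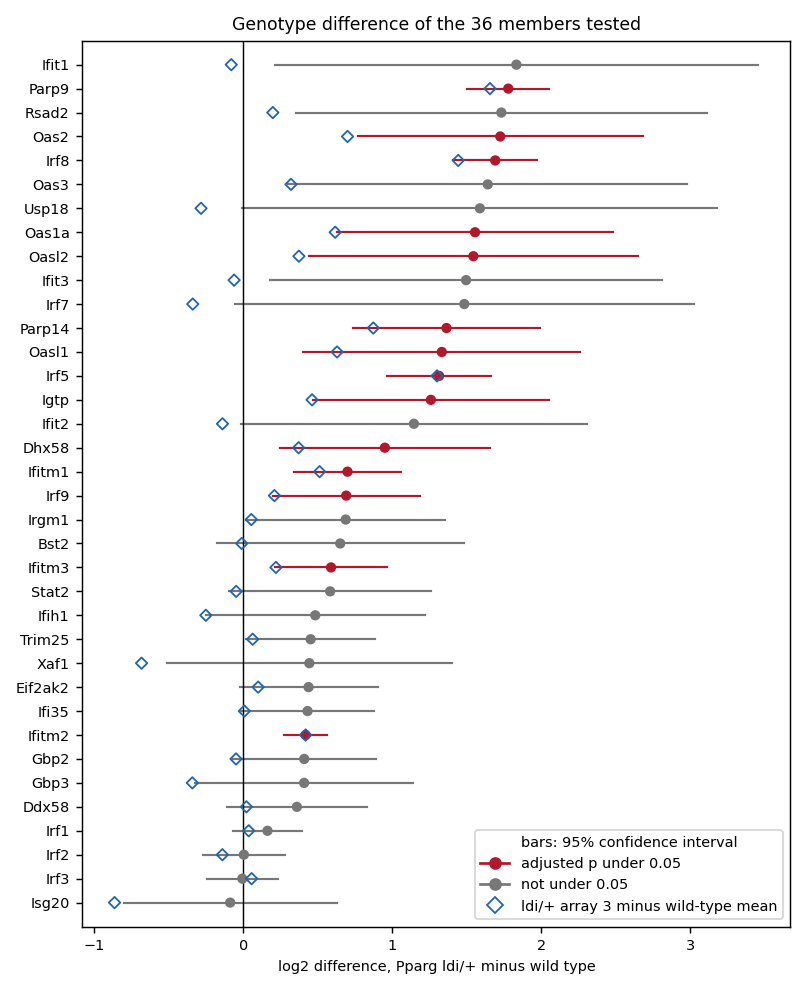
Log2 difference (Pparg ldi/+ minus wild type) of each tested member with its 95% confidence interval from limma, 3 arrays per group, with called members in red and the rest in grey. Open diamonds give Pparg ldi/+ array 3 minus the wild-type mean, and 34 of the 36 filled points lie above 0.

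The group means hid a split among the Pparg ldi/+ arrays. Array 2 was the highest of all 6 arrays for 32 of 36 members, against 15.4% of all genes tested. Array 1 lay above every wild-type array for 33 members (34.9% of all genes) and array 2 for 34 (34.6%), but array 3 for 13 (34.6%), a share close to that of all genes. The order array 2, array 1, array 3 was seen in 31 members, against 18.3% of all genes. All 3 Pparg ldi/+ arrays were above all 3 wild-type arrays in 13 members, against 23.6% of all genes. As a median over the 36 members, the log2 difference from the wild-type mean was 0.86 on array 1, 1.40 on array 2 and 0.060 on array 3, while single wild-type arrays lay at 0.10, -0.072 and -0.0070.

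**Figure D3:**
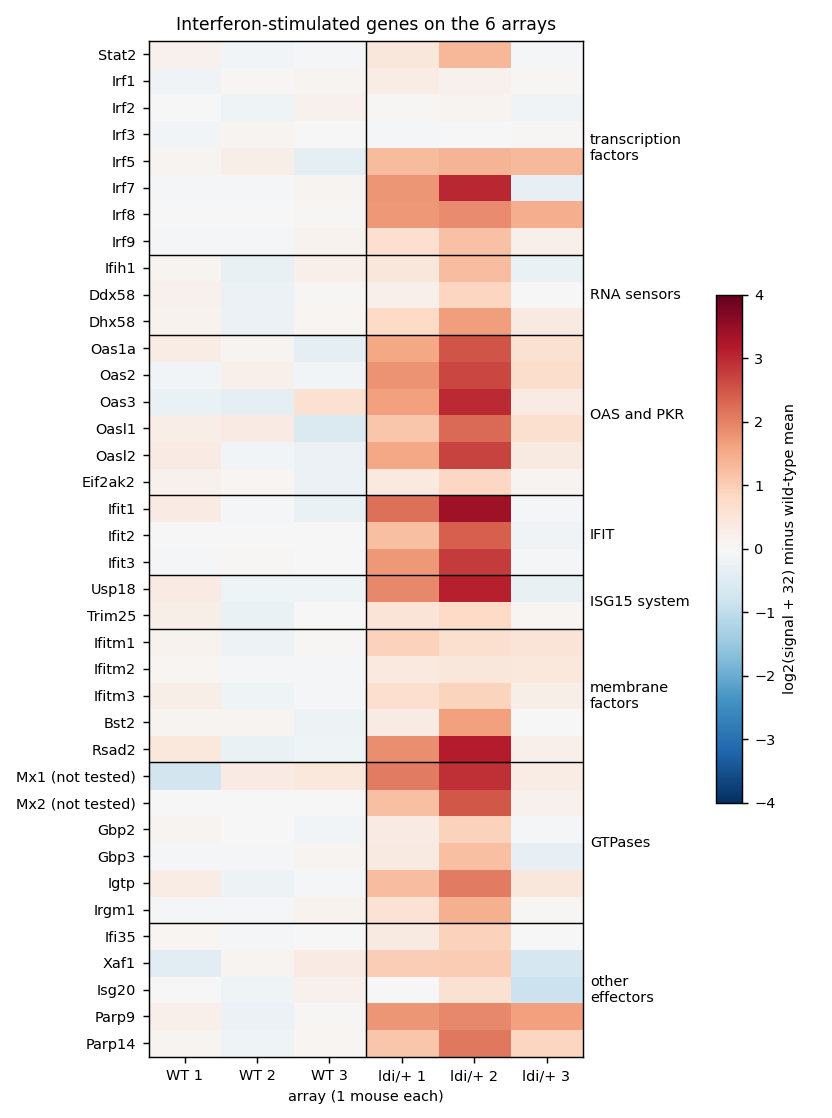
Log2 signal of the 38 members with a probe set on each of the 6 arrays minus the wild-type mean of that member, as a colour scale. The columns of Pparg ldi/+ arrays 1 and 2 are high for most members, and the column of array 3 is high for a few, Parp9, Irf8 and Irf5 among them.

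When Pparg ldi/+ array 3 was left out, 29 of 36 members rose by limma, against 12.6% of all genes called higher in that fit. Array 3 was the Pparg ldi/+ array with the lowest median of the members (0.060). This gain therefore follows from the array left out and is no separate support for a rise. The same holds for the values of single genes without array 3 given below. Against the wild type, array 3 by itself gave 4 of 34 members that rose, Irf5, Irf8, Parp9 and Parp14, against 6.54% of all genes, and Isg20 fell, against 7.94% called lower. That fit assumes that the lone array varies as the wild-type arrays do. The epididymal transcripts given above lay on the same arrays 1 and 2 as the high members, and their part in the members' pattern was not tested. Markers of T and NK cells (12 matched, 3 bright enough to test, Nkg7 through its Pparg ldi/+ signals alone, 2 called higher) summed to 3083, 4323 and 2623 on Pparg ldi/+ arrays 1 to 3, against 899 to 1489.8 in wild type. The largest single signal in these Pparg ldi/+ sums was Il7r, at 1164, 993 and 1042. Prf1, too dim to test, went the other way, with every Pparg ldi/+ array below the wild type. The part of the T and NK cell markers was not tested either. Markers of plasmacytoid dendritic cells, which make large amounts of type I interferon, summed to 3100.3 to 3347 in Pparg ldi/+ and 3286 to 3639.7 in wild type. Most of that sum was Tcf4, which other cells also express and which was called lower (-0.39, limma adjusted p = 0.00535). Siglech and Spib were called higher (0.87 and 0.86, limma adjusted p = 0.012 and 0.0173), each with every Pparg ldi/+ array above the wild type. The median of the 4 markers tested was 0.70, 0.93 and 0.48 above the wild-type mean on Pparg ldi/+ arrays 1 to 3, and Spib was among 2 of the 4 that passed the filter through Pparg ldi/+ alone. The part of these markers was not tested. None of these lists had a marker at a signal of exactly 0.

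**Figure D4:**
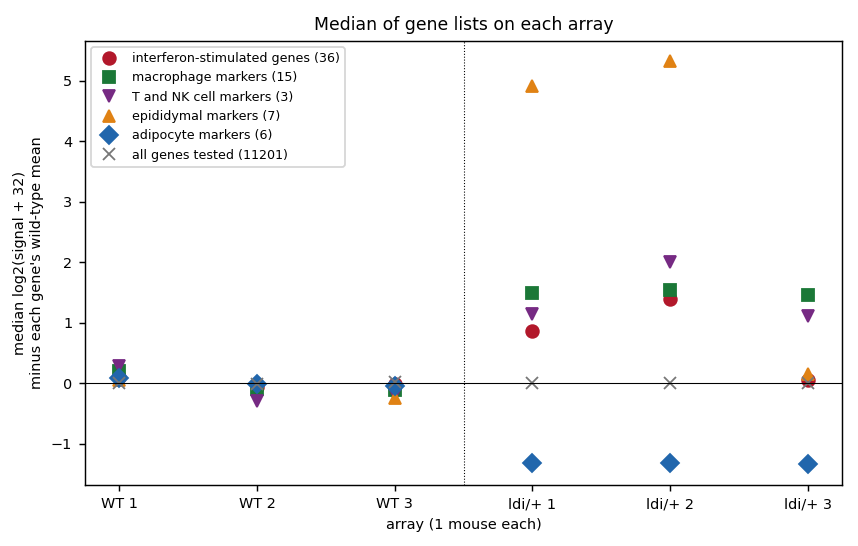
Median log2 difference from the wild-type mean on each array, for the tested members, 4 marker lists and all genes tested. On Pparg ldi/+ arrays 1 to 3 the members stand at 0.86, 1.40 and 0.060, the macrophage markers at 1.48, 1.54 and 1.45, and the epididymal markers at 4.92, 5.33 and 0.15. Of the 7 epididymal markers tested, 5 passed the filter on dim probe sets through their Pparg ldi/+ signals alone, so their medians depend on that filter.

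Among the transcription factors, Irf5, Irf8 and Irf9 rose, with Irf5 and Irf8 high on every Pparg ldi/+ array, and the group ranges of Irf1, Irf2 and Irf3 overlapped. Irf8, which directs the development of monocytes, macrophages and dendritic cells, had signals of 449, 442 and 464 on the wild-type arrays and 1585, 1756 and 1282 on Pparg ldi/+ arrays 1 to 3. The groups did not overlap, and the 3.23-fold rise (log2 1.69, SE 0.12, limma adjusted p = 2.43e-05) was larger than the spread in either group. Irf5, a factor of inflammatory macrophages, had 496, 545 and 350.4 in wild type and 1152, 1225 and 1171 in Pparg ldi/+. Its 3 Pparg ldi/+ values were nearly equal, at 1183 ± 38.1 (SD, n = 3) against 464 ± 101, a log2 difference of 1.31 (SE 0.15, limma adjusted p = 0.000286). For both genes a second probe set gave less, with log2 differences of 0.82 for Irf8 and -0.071 for Irf5, whose second probe set therefore did not show the rise.

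Irf9, the DNA-binding part of the complex that recognises the ISRE, had 507, 505 and 589 in wild type and 875, 1249 and 621 in Pparg ldi/+. It rose 1.61-fold (log2 0.69, SE 0.22, limma adjusted p = 0.0386), and array 3 lay only 0.21 above the wild-type mean on the log2 scale. Irf7, which amplifies type I interferon production and is itself strongly induced by it, had 517, 503 and 574 in wild type and 1879, 4548 and 413 in Pparg ldi/+. Array 2 was the highest, array 1 was also above the wild type, and array 3 was below every wild-type array. The log2 difference of 1.48 had an SE of 0.68 and was not called (limma adjusted p = 0.13), whereas without array 3 it was 2.39 (limma adjusted p = 0.00104).

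Stat2, the partner of Irf9 in that complex, had 484, 395 and 407 in wild type and 599.5, 1127 and 412 in Pparg ldi/+, with array 3 again among the wild-type values. Its log2 difference of 0.58 was not called (limma adjusted p = 0.173). A second probe set gave 0.83, with every Pparg ldi/+ array above the wild type. There array 3 read 259, against 241.8, 180.9 and 241.6 in wild type. Irf1, a factor induced mainly by type II interferon, had 1478, 1713 and 1768 in wild type and 2029, 1841 and 1692 in Pparg ldi/+. These groups overlapped and the log2 difference was 0.16 (limma adjusted p = 0.263). Irf2, which can oppose Irf1, had 736, 642 and 816 in wild type and 745, 794 and 658 in Pparg ldi/+. Irf3, which is activated by phosphorylation and not by induction of its gene, had 566, 664 and 608 and 580.1, 610.4 and 637. The log2 differences of Irf2 and Irf3 were 0.0044 (95% interval -0.27 to 0.28) and -0.0057 (-0.24 to 0.23), and neither sign held under every processing choice.

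**Figure D5:**
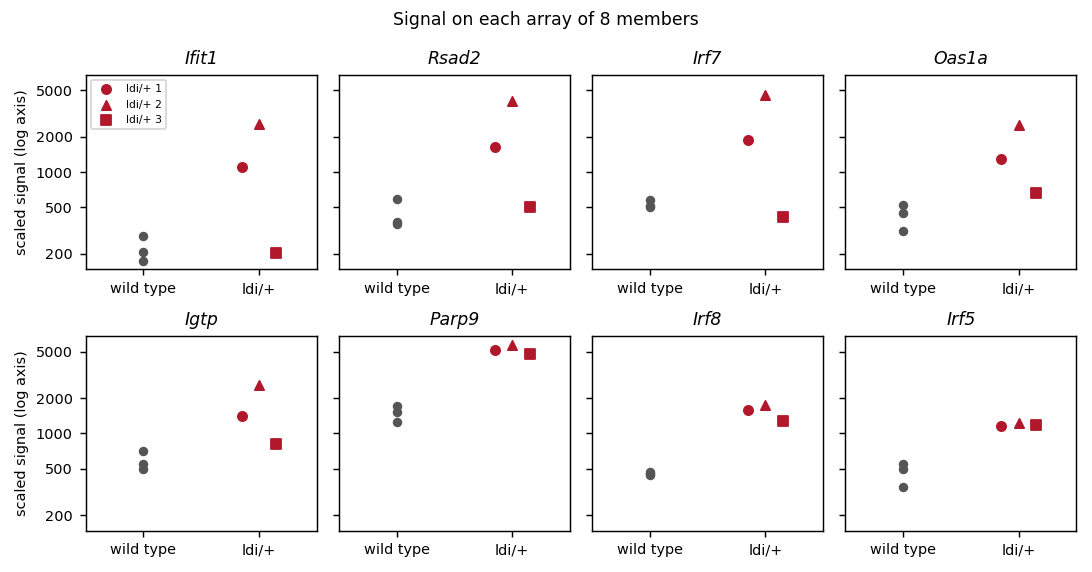
Scaled signal (log axis) of 8 members on each array, with wild-type arrays as grey dots and the 3 Pparg ldi/+ arrays as red symbols by number. In Ifit1, Rsad2 and Irf7 array 3 (square) lies among or below the wild-type arrays, while in Parp9, Irf8 and Irf5 it lies above them.

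The cytosolic RNA sensors recognise viral RNA and signal towards interferon genes. Dhx58, which tunes the other sensors, had 175, 130.2 and 169 in wild type and 296, 575 and 213 in Pparg ldi/+, without overlap. It rose 1.93-fold (log2 0.95, SE 0.31, limma adjusted p = 0.0438). Its other probe sets, below the filter, gave 0.78 and 0.28. In the first of these array 3, at 16.3, lay below every wild-type array. Ifih1, the gene of MDA5, had 1212, 2102 and 727 in Pparg ldi/+ against 938, 703 and 1003, and Ddx58, the gene of RIG-I, had 1249, 1969 and 1094 against 1226, 909 and 1121. On the log2 scale array 2 was 1.24 and 0.85 above the wild-type mean in Ifih1 and Ddx58, array 3 was within the wild-type range, and neither was called (limma adjusted p = 0.288 and 0.22).

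The oligoadenylate synthetases make a second messenger that activates the RNA-cutting enzyme RNase L, and 4 of the 6 members of that group, which also holds the kinase PKR (Eif2ak2), rose. Oas1a had 519, 449.8 and 312 in wild type and 1284, 2517 and 659 in Pparg ldi/+. All 3 Pparg ldi/+ arrays were above the wild type and array 2 was the highest, for a 2.94-fold rise (log2 1.56, SE 0.41, limma adjusted p = 0.0182). Oas2 had 107, 141 and 109 in wild type and 491, 927 and 212 in Pparg ldi/+, a 3.3-fold rise with an SE of 0.42 on the log2 scale (limma adjusted p = 0.0133). Its wild-type signals were below the filter on dim probe sets. Oasl2, a related protein, had 393, 277 and 255 in wild type and 952, 2155 and 402 in Pparg ldi/+ (log2 1.54, SE 0.48, limma adjusted p = 0.0389). Oasl1, which limits the translation of Irf7, had 203, 211 and 98.1 and 386, 906 and 269.8 (log2 1.33, SE 0.41, limma adjusted p = 0.0354). In both genes the groups did not overlap, and array 3 lay 0.37 and 0.63 above the wild-type mean on the log2 scale. Oas3 had 56.8, 51.4 and 128 in wild type and 296, 798 and 100.2 in Pparg ldi/+ and was not called (log2 1.64, limma adjusted p = 0.0624). Eif2ak2, which stops translation on binding double-stranded RNA, ranged from 258 to 355 in wild type and from 335 to 579 in Pparg ldi/+ (log2 0.44, limma adjusted p = 0.136). Its other probe sets gave 0.23 and 0.73, the latter with every Pparg ldi/+ array above the wild type. Near-identical copies in these families, Oas1a among them, may share probes, and their signals cannot be assigned to 1 copy with certainty.

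None of the 3 IFIT genes was called over all arrays, although their medians on arrays 1 and 2 were the highest of the 8 roles (1.75 and 2.80 on the log2 scale, against -0.080 on array 3). Ifit1, whose protein binds foreign RNA ends and blocks their translation, had 282, 207 and 175 in wild type and 1113, 2568 and 204 in Pparg ldi/+. Array 3 lay among the wild-type arrays and array 2 above all others. The log2 difference was 1.83 with an SE of 0.71 (limma adjusted p = 0.0814), and without array 3 it was 2.79 (6.91-fold, limma adjusted p = 0.000679). Ifit3 had 461, 497 and 475 in wild type and 1677, 3519 and 456 in Pparg ldi/+, and Ifit2 had 252, 249 and 247 and 613, 1429 and 223. In these 2 genes array 3 was below every wild-type array. Their log2 differences were 1.50 and 1.15 (limma adjusted p = 0.0801 and 0.121), and 2.27 and 1.79 without array 3 (limma adjusted p = 0.000628 and 0.00376).

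Of the ISG15 system, Usp18, which removes ISG15 from proteins and damps the interferon receptor, had 220.3, 147 and 148 in wild type and 738, 1704 and 133 in Pparg ldi/+. Arrays 1 and 2 stood far above the wild type and array 3 below it, and the log2 difference of 1.59 was not called (limma adjusted p = 0.118). Without array 3 it was 2.52 (limma adjusted p = 0.00111). Trim25, the ligase that activates RIG-I, had a log2 difference of 0.45 (limma adjusted p = 0.104), with signals of 1053 to 1505 in wild type and 1326 to 2219.9 in Pparg ldi/+.

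The IFITM proteins, which stop viruses from entering through membranes, rose by less than most other called members. Ifitm1 had 288, 223 and 272 in wild type and 525, 427 and 384 in Pparg ldi/+, and was 1 of 4 members whose highest array was not array 2 (log2 0.70, SE 0.16, limma adjusted p = 0.00963). Ifitm2 had 9154, 8476 and 8486 in wild type and 11429, 11858 and 11640.0 in Pparg ldi/+. The Pparg ldi/+ values were nearly equal, and the log2 difference of 0.42 had an SE of only 0.063 (limma adjusted p = 0.00117). Ifitm3 had 13284, 9976 and 11026 and 18105, 20849 and 13219, with array 3 just below the highest wild-type array (log2 0.59, SE 0.17, limma adjusted p = 0.0249). These 3 genes have similar sequences and may share signal. Rsad2, the gene of viperin, had 592, 358 and 378 in wild type and 1649, 4051 and 500.1 in Pparg ldi/+, with array 3 between the wild-type values. Its log2 difference of 1.73 was not called over all arrays (limma adjusted p = 0.0579) and was 2.50 without array 3 (limma adjusted p = 0.00169), and its 2 other probe sets gave 1.22 and 1.78 over all arrays. Bst2, the gene of tetherin, had 708, 705 and 561 and 824, 2114 and 649.6, with array 3 within the wild-type range (log2 0.65, limma adjusted p = 0.209).

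Of the GTPases, Igtp rose and 3 were not called. Igtp, an immunity-related GTPase that acts on the vacuoles of intracellular parasites and is induced mainly by type II interferon, had 712, 498 and 549.7 in wild type and 1399.8, 2574 and 811 in Pparg ldi/+. The groups did not overlap, and the rise was 2.39-fold (log2 1.26, SE 0.35, limma adjusted p = 0.0227). Its relative Irgm1 had 449, 454 and 529 and 728, 1336 and 496, with array 3 between the wild-type values (log2 0.69, limma adjusted p = 0.107). The guanylate-binding proteins Gbp2 and Gbp3 had log2 differences of 0.41 and 0.41 (limma adjusted p = 0.176 and 0.371), and for Gbp3 array 3, at 435, was below all wild-type arrays, at 544, 525 and 613. Mx1, which blocks influenza and related viruses, had 20.2, 77.1 and 85.6 in wild type and 334, 633 and 76.5 in Pparg ldi/+, and Mx2 had 10.2, 10.6 and 9.69 and 65.2, 201 and 15.3. Both were too dim for a test, and in both arrays 1 and 2 were above the wild type.

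Of the other effectors, Parp9 and Parp14 rose and the rest were not called. Parp9, which works with the ligase Dtx3l in ADP-ribosylation and DNA repair, had 1711, 1256 and 1539 in wild type and 5122, 5726 and 4763 in Pparg ldi/+. All 3 Pparg ldi/+ arrays were above every wild-type array, a 3.43-fold rise (log2 1.78, SE 0.12, limma adjusted p = 1.63e-05) and the smallest p of any member. Parp14, a related enzyme that shapes macrophage activation, had 604, 491 and 599 in wild type and 1264, 2506 and 1056 in Pparg ldi/+ (log2 1.36, SE 0.27, limma adjusted p = 0.0054). It was high on all 3 Pparg ldi/+ arrays and still highest on array 2. Array 3 alone gave 1.66 for Parp9 and 0.87 for Parp14 (limma adjusted p = 0.00178 and 0.0233).

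Ifi35 had a log2 difference of 0.43, with array 2 at 5672 against 3159.9, 2850.4 and 2931 in wild type (limma adjusted p = 0.127). Its other probe sets gave 0.47 and 0.61, the latter with every Pparg ldi/+ array above the wild type. Xaf1, which promotes apoptosis, had 853, 1235 and 1437 in wild type and 2326, 2356 and 704 in Pparg ldi/+ (log2 0.44, limma adjusted p = 0.459). Its second probe set gave 1.05, with array 2 alone above the wild type. That probe set read 484.3, 192.9 and 160.5 in wild type and 243.5, 1712.9 and 377.7 in Pparg ldi/+. Isg20, an exonuclease that degrades viral RNA, had 639, 568 and 718 and 631, 998 and 337 and showed the lowest difference of any member, -0.087 (limma adjusted p = 0.858). It was high on array 2 and below every wild-type array on array 3, where the log2 difference was -0.86 (limma adjusted p = 0.0281).

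The calls of 7 members, Irf5, Irf8, Oas2, Ifitm1, Ifitm2, Parp9 and Parp14, held in all 6 fits that left out 1 array. Of these, Oas2 was among the tested genes only through its Pparg ldi/+ signals. The 7 other called members lost their call in at least 2 of the 6 fits, always with a positive difference. Irf9, Dhx58, Oasl1 and Oasl2 were called over all arrays and without Pparg ldi/+ array 3, but in none of the other 5 fits, where their log2 differences were 0.45 to 0.76, 0.58 to 1.03, 0.87 to 1.49 and 0.96 to 1.72. Ifitm3 lost its call without wild-type array 2 or 3 or Pparg ldi/+ array 1 or 2 (0.45 to 0.57), Igtp without wild-type array 2 or 3 or Pparg ldi/+ array 1 (1.16 to 1.28), and Oas1a without wild-type array 3 or Pparg ldi/+ array 1 (1.36 to 1.56). In these fits the limma adjusted p lay between 0.0528 and 0.123. The count of members that rose was 10 of 37, 8 of 36 and 7 of 36 without wild-type array 1, 2 or 3. It was 7 of 35 and 9 of 35 without Pparg ldi/+ array 1 or 2, and 29 of 36 without array 3. Of all genes, 1606 of 11205, 1665 of 11209 and 1706 of 11196 were called higher without wild-type array 1, 2 or 3. Without Pparg ldi/+ array 1, 2 or 3 these were 1290 of 11184, 1490 of 11169 and 1414 of 11200. The 15 members gained without array 3 were Stat2, Irf7, Ifih1, Oas3, Ifit1, Ifit2, Ifit3, Usp18, Trim25, Rsad2, Gbp2, Gbp3, Irgm1, Ifi35 and Xaf1, with log2 differences from 0.64 for Gbp2 to 2.79 for Ifit1.

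The members were also set side by side by the ISRE core in their window. The 17 tested members with the core had a median log2 difference of 0.59, with 4 called, and the 14 without it 0.70, with 6 called. The share called higher over all genes tested was 16.3%. On Pparg ldi/+ arrays 1 to 3 the medians were 0.46, 1.34 and 0.021 with the core, and 0.96, 1.10 and 0.060 without it. Of the 4 members that rose with array 3 alone, Irf8 had 2 GAS matches and no ISRE core in its first window and Irf5 neither motif, while Parp9 and Parp14 had no window in the table. The 5 tested members without a window (Dhx58, Oas2, Usp18, Parp9 and Parp14) had a median of 1.59, with 4 called.

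Of 11 genes listed that encode interferons, 7 had a probe set and all 7 were too dim to test. Ifnb1 had 107, 93.3 and 88.7 in wild type and 131, 101 and 126 in Pparg ldi/+, and Ifng had 3.74, 43.9 and 5.44 and 27.2, 48.8 and 26.3. Ifnz had 100.2, 135 and 119 and 117, 116 and 154. The groups overlapped for these 3. Ifna1 had 59.8, 58.4 and 47 and 36, 56.9 and 106, Ifna2 6.48, 11.5 and 22.7 and 9.74, 18.6 and 16.1, Ifna4 14.5, 7.66 and 9.22 and 3.85, 7.67 and 3.6, and Ifna5 14.2, 7.66 and 10.4 and 11.3, 36.6 and 53, also with overlap. The summed signal of the 7 was 302 to 357 in wild type and 336 to 484 in Pparg ldi/+.

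Receptors and kinases of the pathway changed less, with a median log2 difference of 0.21 and 3 of 8 called higher, against 16.3% of all genes tested. Il10rb, a receptor chain shared by type III interferon and interleukin-10, had 2088, 1788 and 1974 in wild type and 2819, 3194 and 2877 in Pparg ldi/+ (log2 0.60, limma adjusted p = 0.00115). Ifngr2, a chain of the type II receptor, rose by 0.82 (limma adjusted p = 0.0046) and the kinase Jak1 by 0.29 (limma adjusted p = 0.00921). These 3 were higher on all 3 Pparg ldi/+ arrays than on any wild-type array.

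Genes that sense nucleic acids upstream of interferon had a median of 0.47, with 7 of 14 called higher, against 16.3% of all genes tested. Of the 14, Tlr7, Zbp1 and Cgas passed the filter through their Pparg ldi/+ signals alone, and Tlr7 and Zbp1 are among the 7. Tlr7, the endosomal receptor for single-stranded RNA, had 107, 142 and 127 in wild type and 435, 489 and 459 in Pparg ldi/+, without overlap (log2 1.65, SE 0.15, limma adjusted p = 8.57e-05). The kinase Tbk1, which activates Irf3, rose by 0.46 (limma adjusted p = 0.00372) and the DNA sensor gene Ifi204 by 1.24 (limma adjusted p = 0.0123). Negative regulators had a median of 0.54, with 7 of 10 called higher, against 16.3% of all genes tested. Nlrx1, a mitochondrial inhibitor of RNA sensing, was called lower (-0.45, limma adjusted p = 0.00939), as were 16.4% of all genes. The phosphatases Ptpn1 and Ptpn6, which act on JAK kinases, rose by 1.12 and 1.83 (limma adjusted p = 1.76e-05 and 0.000633), and Samhd1, which lowers the nucleotide pool, by 0.91 (limma adjusted p = 0.00159). The ISG15 conjugation partners Uba7, Ube2l6 and Herc6 had differences of 0.63, 0.64 and 0.55, and limma called 0 of the 3 (adjusted p = 0.0549, 0.105 and 0.0951).

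A second list of 57 interferon-stimulated genes, with 47 tested, had a median of 0.45. Of the 47, 17 were called higher and 1 lower, against 16.3% and 16.4% of all genes tested. Array 2 was the highest in 39 of the 47, against 15.4% of all genes. On Pparg ldi/+ arrays 1 to 3 its medians were 0.46, 0.95 and 0.093, the same order as in the members. In this list Cxcl10 and Ddx60, both called higher, passed the filter through their Pparg ldi/+ signals alone. The 3 genes with the smallest p of this list were Dtx3l, Cxcl10 and Slfn2. Dtx3l, the partner of Parp9, had 1214, 1081 and 1235 in wild type and 4800.4, 4764 and 5101 in Pparg ldi/+ (log2 2.03, SE 0.081, limma adjusted p = 1.95e-06), and its second probe set gave 2.17. Cxcl10, a chemokine that draws T cells, had 131, 169.9 and 78 in wild type and 2123, 2275 and 2008 in Pparg ldi/+, a 14.1-fold rise (log2 3.82, SE 0.20, limma adjusted p = 5.09e-06). Slfn2, a gene of the Schlafen family needed for T cell and monocyte quiescence, rose by 2.02 (limma adjusted p = 0.000166). In all 3 the Pparg ldi/+ arrays were above every wild-type array. The 1 gene that fell, Ifi27l2a, which encodes a small mitochondrial protein, is named after its values were seen, with 14187, 11909 and 13196 in wild type and 4019, 6833 and 1786 in Pparg ldi/+ (log2 -1.82, SE 0.39, limma adjusted p = 0.00718).

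Of 81 other pathway genes tested with array 3 by itself against the wild type, 14 were called higher, against 6.54% of all genes in that fit, and Ifi27l2a, Daxx and Ly6e lower, against 7.94%. Those called higher were Ifngr2, Il10rb, Tlr7, Sting1, Ptpn1, Ptpn2, Ptpn6, Samhd1, Cxcl10, Ifi47, Dtx3l, Epsti1, Slfn2 and Plac8. Among them, Tlr7 and Cxcl10 had wild-type means of 7.29 and 7.26 on the log2 scale, below the main fit's filter of 7.46. Their place among the tested genes therefore depended on a high signal in Pparg ldi/+. Macrophage markers were as high on array 3 as on the other Pparg ldi/+ arrays (median 1.45, against 1.48 and 1.54). The part of these markers in the pathway genes called higher and in Irf5, Irf8, Parp9 and Parp14 was not tested.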

How the data were processed

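RNA from the epididymal fat of 6 mice was hybridised to Affymetrix MOE430v2.0 arrays, 1 mouse per array. The deposited values are intensities on a linear scale, 1 per probe set; MAS5 is named for 2 of the 6 samples per the submitters' processing notes, and no source used here gives its version or any later step. Each array was scaled here to a mean of 500 after trimming 2% at each end, 32 was added and log2 taken. Probe sets with 1 gene symbol in the platform annotation (34945, against 932 with several and 9160 with none, besides 64 controls) were reduced to the brightest per gene, x_at sets only where no other existed. Genes whose mean was below the median of all probe sets (log2 7.46) were left out.

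The genotype difference of each gene was fitted in limma 3.58.1 under R 4.3.3 by lmFit and eBayes with an intensity trend, with 3 arrays per group and no block, and Benjamini-Hochberg adjustment over 11201 genes and a threshold of 0.05. The members and lists were chosen with earlier results of these data known. Every member is named, the transcription factors and the 12 called members with the largest difference get each array's value, as do each interferon gene and Pparg, and of each other pathway list the 3 genes with the smallest p get values. Motifs were searched in RefSeq promoter windows. Alternatives covered the offset, scaling, filter, variance model, choice of probe set, a replicate block and leaving out arrays. The code was tested on simulated data.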

Additional observations from a re-analysis of the deposited data

How the results depend on the processing

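Of the 14 members that rose, all 14 kept their call with offsets of 16 or 100, a floor of 32 in place of the offset, quantile normalisation, and x_at probe sets allowed. With no scaling 24 members rose (all 14 and 10 more), whereas 9 rose without the brightness filter, and 9 without an intensity trend in the variance model. Without scaling all genes shifted too, with a median of 0.044 against -0.0043. In that fit 1792 genes were called higher and 1331 lower, against 1831 and 1837 in the main fit. Genes called higher were 1771 of 18193 without the filter and 1695 of 11201 without the trend. Array weights gave 12, averaged probe sets 13 of 35, and the brighter 30% of probe sets 10 of 28. The genes called higher in these fits were 1903 of 11201, 1527 of 10099 and 1475 of 7867. Leaving out each array in turn gave 7 to 29 members that rose and 22 to 45 genes of the other pathway lists, against 34 over all arrays. Over those fits the genes called higher ranged from 1290 of 11184 to 1706 of 11196. When array 3 was the 1 Pparg ldi/+ array kept, 4 members rose and 1 fell, their median was 0.055, 14 genes of the other lists rose and 1616 genes were called in all. The fit with a replicate block, with the title's number as the block, gave 14 members, 12 of them shared, with Irf9 and Dhx58 lost and Ifit1 and Rsad2 gained, and 3166 genes called in all against 3668. Deviations from the group means correlated at -0.13, -0.086 and -0.095 between same-numbered arrays, and at 0.036 to 0.076 between the other pairs. With 3 arrays per group these values cannot show whether the numbers pair the mice.

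Among the single members, 24 alternative values turned in sign. Irf2 (0.0044 over all arrays) was -0.0025 with quantile normalisation, and lay between -0.082 and 0.084 when 1 array was left out, below 0 without wild-type array 2 or Pparg ldi/+ array 1 or 2. Irf3 (-0.0057) was 0.042 with no scaling, 0.0035 with array weights, 0.0099 with the mean of probe sets, 0.0085 with x_at probe sets allowed, and lay between -0.059 and 0.051 when 1 array was left out, above 0 without wild-type array 2 or Pparg ldi/+ array 1. Isg20 lay between -0.44 and 0.30, above 0 without Pparg ldi/+ array 3. With that array alone the differences were -0.14 for Irf2, 0.056 for Irf3, -0.047 for Stat2, -0.34 for Irf7, -0.25 for Ifih1, -0.080 for Ifit1, -0.14 for Ifit2, -0.061 for Ifit3, -0.28 for Usp18, -0.0099 for Bst2, -0.048 for Gbp2, -0.34 for Gbp3 and -0.68 for Xaf1. The cause of these turns, and of the counts above that moved, was not tested. With 3 arrays per group the number of mice limits the precision, and Mx1, Mx2 and the interferon genes were too dim to resolve.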

Other observations

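The genes below belong to the second list of interferon-stimulated genes and are named after their values were seen. Plac8, a gene of monocytes and lymphocytes, had signals of 469, 333 and 413 in wild type and 3205, 5795 and 1464 in Pparg ldi/+, a log2 difference of 2.81 (SE 0.41, limma adjusted p = 0.000973). Cxcl9, a chemokine gene known for induction by type II interferon, had 872, 566 and 854 in wild type and 766, 2226 and 500.1 in Pparg ldi/+ and was not called (limma adjusted p = 0.618), with array 2 alone above the wild type.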
